A study of Mus musculus with 12 samples.

Results

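The genes described here were 36 genes whose products build ribosomes in the nucleolus, chosen by name among the 48795 gene identifiers of the count table, of which 14756 had enough counts to be tested. All 36 were found and all 36 passed the filter on low counts. The choice was made with earlier results of these data known. They were read in 12 RNA-seq libraries of LTHSC, long-term hematopoietic stem cells, which stand at the top of blood formation. The cells were leukemic, from chronic myeloid leukemia (CML), and were sorted by flow cytometry out of C57BL/6 bone marrow. The libraries formed 3 groups of 4, called biological replicates in the labels. No_Cre mice had no Cre recombinase. Tek_Cre mice carried Cre under the Tek promoter, which works in endothelium and in blood-forming cells. Prx1_Cre mice carried Cre under the Prx1 promoter, which works in mesenchymal stroma. The series title concerns the Cxcl12 made by mesenchymal cells of the niche, and the comparisons ask how the sorted leukemic cells differed with the Cre line. In the labels the mice are recipients in one field and primary mice in another, and neither a Cxcl12 genotype nor the model of leukemia is named.

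Ribosomes begin in the nucleolus, where RNA polymerase I copies the ribosomal DNA into 1 long precursor RNA. Small nucleolar ribonucleoproteins (snoRNPs) of the box C/D and box H/ACA classes methylate and pseudouridylate that precursor, and large sets of assembly factors fold and cut it into the small and the large subunit. Much of this machinery is transcribed under MYC, which binds the E-box CACGTG, and it is known to rise when blood progenitors leave quiescence and grow.

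The promoters of the genes were examined for that E-box because the genes moved together. RefSeq promoter windows on GRCm38.p6, from 250 bases before to 50 bases after the start site, were held for 31 of the 36 genes. The letters CACGTG, which read the same on both strands, occurred in the windows of 8 of these 31 genes (25.8%), against 11.6% of the genes tested that had a window and 8.09% of all genes with a window. A related E-box, CACGCG, read on both strands, occurred in 11 of 31 (35.5%), against 19.5% of genes tested. The stretches below, printed 5′ to 3′ along the strand of the gene, show 6 of the 8 genes with CACGTG, which is in capitals.
Nop2 (chr6:125131811-125131840, plus strand): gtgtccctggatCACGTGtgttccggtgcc
Ltv1 (chr10:13193092-13193121, minus strand): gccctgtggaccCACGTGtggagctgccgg
Pes1 (chr11:3963965-3963994, plus strand): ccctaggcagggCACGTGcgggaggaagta
Mybbp1a (chr11:72441355-72441376, plus strand): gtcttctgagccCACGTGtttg
Tsr1 (chr11:74898092-74898121, plus strand): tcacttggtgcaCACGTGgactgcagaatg
Wdr43 (chr17:71616220-71616249, plus strand): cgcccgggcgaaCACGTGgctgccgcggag
In Prx1_Cre against No_Cre the median log2 fold change was 0.66 over the 8 genes with CACGTG and 0.72 over the 23 without, and in Tek_Cre against No_Cre it was -0.15 in both sets. These are matches of letters, and binding was not measured.

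Total counts per library ran from 15715603 to 28860324. Values are CPM, that is counts per 1000000 counts of the effective library size after TMM (trimmed mean of M-values) normalisation, and changes are log2 fold changes ± SE from edgeR's quasi-likelihood test, called where the Benjamini-Hochberg adjusted p over all 14756 genes was under 0.05. Spread between libraries of a group was low, with a biological coefficient of variation of 3.45% in No_Cre, 5.29% in Tek_Cre and 6.82% in Prx1_Cre. At this spread 75.6% of all genes tested were called in Prx1_Cre against No_Cre, 52.9% in Tek_Cre against No_Cre and 77.6% in Prx1_Cre against Tek_Cre. The p-values measure the spread between these libraries. The labels do not say which mouse each came from, so whether this is spread between mice is not known. Prx1_Cre replicate 4 stood apart from the rest of its group: over all genes its counts differed from theirs by a chi-square per degree of freedom of 10.5 to 13.0, against 1.75 to 7.20 for the other pairs of one group. Markers of neutrophils summed to more CPM than those of LTHSC in every library, and immunoglobulin genes took 7.31% to 7.71% of counts in No_Cre, 25.2% to 26.02% in Tek_Cre and 0.296% to 0.310% in Prx1_Cre. The 3 comparisons share libraries, so each group enters 2 of them.

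**Figure D1:**
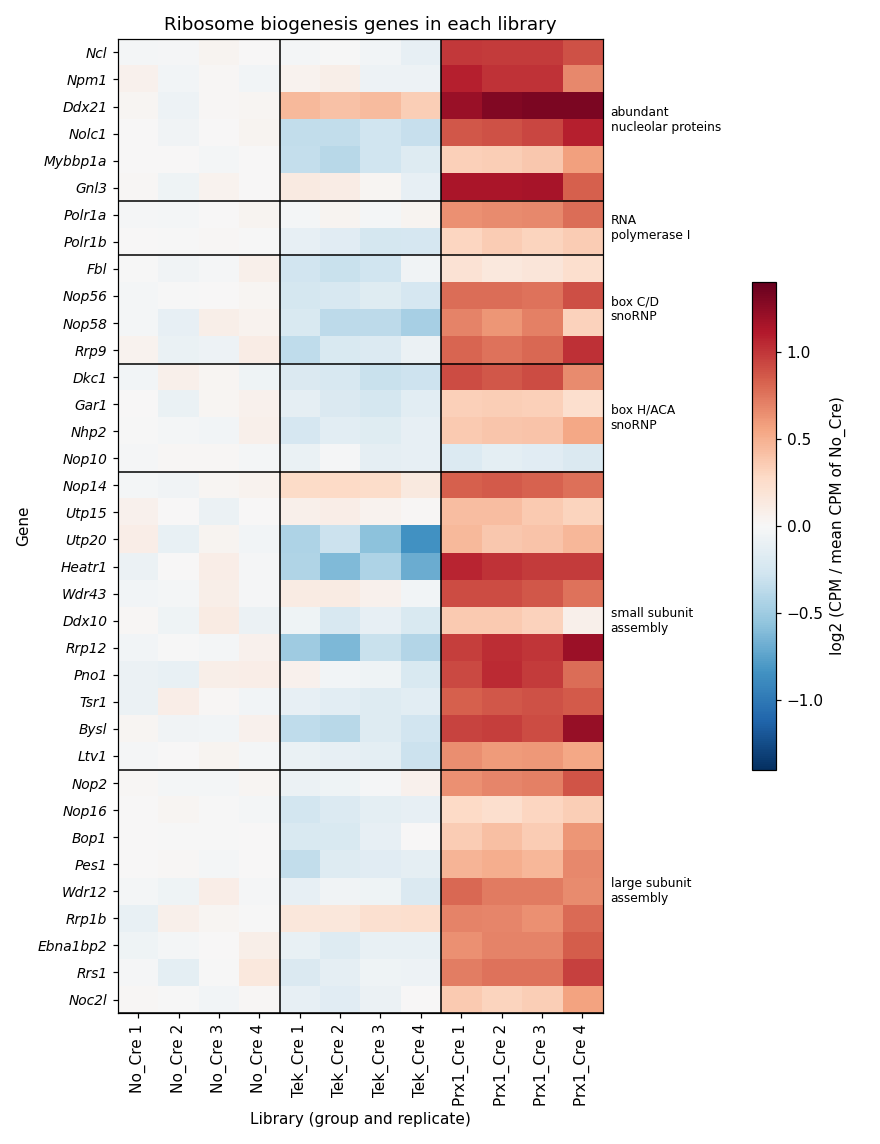
Level of the 36 genes in each of the 12 libraries, as the log2 ratio of CPM to the gene's mean CPM in No_Cre, with genes in rows by role and libraries in columns by group. Prx1_Cre libraries are red or pale red for 35 genes and blue for Nop10, and Tek_Cre libraries are mostly pale blue, with Ddx21, Nop14 and Rrp1b red.

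The genes rose together in Prx1_Cre. In Prx1_Cre against No_Cre, 35 of 36 rose and 1, Nop10, fell, where 36.7% of all genes tested rose and 39.0% fell. Their median log2 fold change was 0.73 and ranged from -0.17 to 1.29, beside a median of -0.02 over all genes tested. The 4 Prx1_Cre libraries lay above all 4 No_Cre libraries for 34 genes and below them for 1, where 33.2% and 35.4% of all genes tested did so. The change reached 2-fold for 5 genes (Ddx21, Gnl3, Heatr1, Rrp12 and Bysl) and 1.5-fold for 23. A rise of at least 2-fold was found in 7.79% of all genes tested. The 36 genes together took 0.828% to 0.831% of all counts in Prx1_Cre libraries, 0.510% to 0.523% in No_Cre and 0.367% to 0.377% in Tek_Cre libraries. As a share of the TMM-scaled total, on which the CPM values rest, this was 0.764% to 0.786%, 0.470% to 0.480% and 0.434% to 0.439% in the same order, so the gap between No_Cre and Tek_Cre was narrower on that scale. In bulk RNA such as this, more cells of a type and more RNA per cell cannot be told apart.

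Tek_Cre libraries differed from No_Cre mostly in the other direction and by less. In Tek_Cre against No_Cre, 21 of 36 fell, 3 rose and 12 were not called, where 26.5% of all genes tested fell and 26.4% rose. The median was -0.15, beside a median of 0.00033 over all genes tested, and no gene reached a 1.5-fold change. When tested against a minimum change of 1.2-fold, 1 gene was called higher (Ddx21) and 3 lower (Utp20, Heatr1 and Rrp12). Libraries did not overlap for 18 genes lower and 3 higher, where 24.5% and 24.3% of all genes tested did so.

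Set directly against each other, Prx1_Cre exceeded Tek_Cre for 35 of 36 genes and was lower for Nop10, where 37.8% of all genes tested rose and 39.8% fell. The median was 0.82, beside -0.01 over all genes tested. A 2-fold rise was reached by 10 genes, led by Heatr1 and Rrp12, and by 10.1% of all genes tested. Libraries of these 2 groups did not overlap for 35 genes higher and 1 lower, where 33.5% and 35.9% of all genes tested did so. Group means ran from Tek_Cre through No_Cre to Prx1_Cre for 27 genes, an order found in 24.5% of all genes tested, although 7 of these (Ncl, Ddx10, Pno1, Nop2, Wdr12, Rrs1 and Noc2l) were not called between Tek_Cre and No_Cre. For 8 genes the order was No_Cre, Tek_Cre, Prx1_Cre, which was found in 16.9% of all genes tested. Of these 8 genes, 5 (Npm1, Gnl3, Polr1a, Utp15 and Wdr43) were not called between No_Cre and Tek_Cre. Nop10 alone ran from Prx1_Cre through Tek_Cre to No_Cre, an order found in 17.5% of all genes tested.

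**Figure D2:**
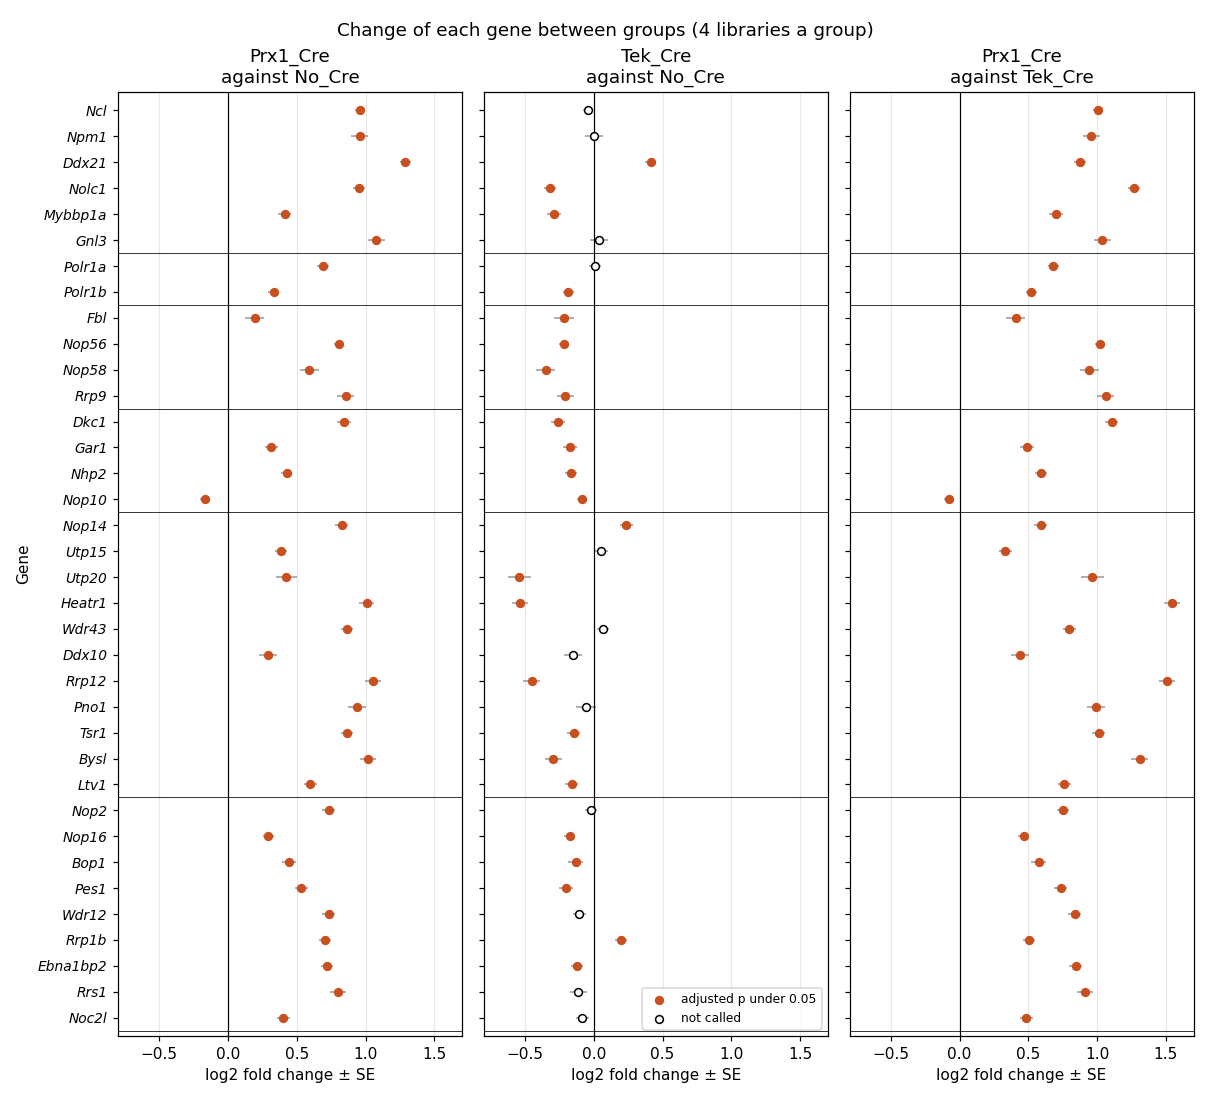
Log2 fold change ± SE of each of the 36 genes in the 3 comparisons, 4 libraries a group, filled where the adjusted p was under 0.05. All but Nop10 lie right of 0 in both comparisons with Prx1_Cre, and in Tek_Cre against No_Cre the points run from -0.54 for Utp20 and Heatr1 to 0.41 for Ddx21.

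All 6 abundant nucleolar proteins rose in Prx1_Cre against No_Cre, with a median of 0.96, the highest of the role groups in that comparison. In Tek_Cre against No_Cre 1 rose, 2 fell and 3 were not called. Of all genes tested, 36.7% rose and 39.0% fell in the first comparison, and 26.4% rose and 26.5% fell in the second. The same shares stand beside the counts of the other role groups below. Ncl encodes nucleolin, an RNA-binding protein of the nucleolus that binds the precursor rRNA (ENSMUSG00000026234.12, chr1:86344719-86359400). Its levels were 682, 684, 713 and 695 CPM in No_Cre, 680.2, 692, 676 and 643 in Tek_Cre and 1373, 1362, 1368 and 1286 in Prx1_Cre. The No_Cre and Tek_Cre libraries overlapped and all 4 Prx1_Cre libraries stood above both. Ncl rose in Prx1_Cre against No_Cre by 0.96 ± 0.04 log2 (adjusted p = 5.61e-17), and its change in Tek_Cre was -0.04 ± 0.04 log2 (adjusted p = 0.314). Npm1, which encodes the histone and ribosomal protein chaperone nucleophosmin, had group means of 97.4 ± 3.52, 97.5 ± 5.59 and 189 ± 22.6 CPM (SD, n = 4) in No_Cre, Tek_Cre and Prx1_Cre and rose by 0.96 ± 0.06 log2 in Prx1_Cre.

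Ddx21, an RNA helicase that acts on RNA polymerase I transcription and on snoRNAs, made the largest change of the 36 genes in Prx1_Cre against No_Cre (ENSMUSG00000020075.7, chr10:62580251-62602281). Its levels were 82.1, 76.7, 81.3 and 82.4 CPM in No_Cre, 110.4, 107, 109.6 and 102 in Tek_Cre and 187, 199, 200.4 and 201 in Prx1_Cre. The 3 groups did not overlap, with No_Cre lowest. Ddx21 rose by 1.29 ± 0.04 log2 (adjusted p = 1.87e-18) in Prx1_Cre, and it also rose in Tek_Cre, by 0.41 ± 0.04 log2 (adjusted p = 1.83e-08). Gnl3 encodes nucleostemin, a nucleolar GTPase known from stem cells. Its levels were 75.9, 71.9, 77.5 and 75.1 CPM in No_Cre, 82.1, 80.98, 76.4 and 69.5 in Tek_Cre and 166, 166, 167 and 134 in Prx1_Cre. Tek_Cre and No_Cre overlapped, and Prx1_Cre libraries were higher, replicate 4 by less than the others. Gnl3 rose in Prx1_Cre by 1.08 ± 0.06 log2 (adjusted p = 1.44e-13).

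Mybbp1a made the smallest change of the 6 in Prx1_Cre against No_Cre, and Nolc1 the next smallest. The change of Nolc1 differed from those of Npm1 and Ncl by less than its SE. Nolc1 encodes Nopp140, a scaffold that binds both snoRNP classes, and measured 206, 198, 207 and 211 CPM in No_Cre, 161, 162, 169 and 164 in Tek_Cre and 374, 381, 392 and 437 in Prx1_Cre. Mybbp1a encodes a Myb-binding nucleolar protein with roles in rRNA synthesis and processing, and measured 428, 429, 419.6 and 428 CPM in No_Cre, 338, 325, 352 and 377 in Tek_Cre and 538, 542, 554 and 632 in Prx1_Cre. For both genes the groups did not overlap, with Tek_Cre lowest and Prx1_Cre highest. Nolc1 rose by 0.95 ± 0.04 log2 (adjusted p = 2.24e-15) in Prx1_Cre and fell in Tek_Cre (log2 change -0.32 ± 0.04, adjusted p = 1.94e-06). Mybbp1a rose by 0.41 ± 0.05 log2 (adjusted p = 5.35e-08) in Prx1_Cre and fell in Tek_Cre (log2 change -0.29 ± 0.05, adjusted p = 2.60e-05).

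Polr1a and Polr1b encode the 2 largest subunits of RNA polymerase I, and both rose in Prx1_Cre, with a median of 0.51. Polr1a measured 67.9, 67.2, 68.6 and 70.5 CPM in No_Cre, 67.5, 70.6, 67.1 and 70.3 in Tek_Cre and 107, 108, 109 and 117 in Prx1_Cre. Only the Prx1_Cre libraries stood apart. Polr1b measured 96.2, 95.5, 97.1 and 95.4 CPM in No_Cre, 88.8, 86.2, 80.9 and 81.8 in Tek_Cre and 119, 123, 119 and 123 in Prx1_Cre. Here Tek_Cre lay below No_Cre and Prx1_Cre above it, with no overlap. Polr1a rose by 0.69 ± 0.04 log2 (adjusted p = 5.44e-13) in Prx1_Cre and Polr1b by 0.33 ± 0.04 log2 (adjusted p = 6.52e-08). In Tek_Cre against No_Cre Polr1b fell (log2 change -0.19 ± 0.04, adjusted p = 5.13e-04), and Polr1a was not called (log2 change 0.01 ± 0.04, adjusted p = 0.91).

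All 4 box C/D snoRNP genes rose in Prx1_Cre against No_Cre and fell in Tek_Cre against No_Cre, with medians of 0.70 and -0.22. Among all genes tested, 36.7% rose in the first comparison and 26.5% fell in the second. Nop56, a core protein of the particle, was the most abundant, at 236, 240.1, 241 and 245 CPM in No_Cre, 203, 206, 213 and 205 in Tek_Cre and 412, 412, 407 and 448 in Prx1_Cre. The groups did not overlap. Nop56 rose by 0.80 ± 0.04 log2 (adjusted p = 2.80e-15) in Prx1_Cre and fell in Tek_Cre (log2 change -0.22 ± 0.04, adjusted p = 3.89e-05). Rrp9, which binds the U3 snoRNA, measured 68.4, 62.2, 62.9 and 70.9 CPM in No_Cre, 51.8, 57.1, 57.8 and 62.2 in Tek_Cre and 116, 112, 115 and 135 in Prx1_Cre. Tek_Cre touched the lower No_Cre libraries, and Prx1_Cre stood above both. Rrp9 rose by 0.85 ± 0.06 log2 (adjusted p = 7.13e-12) in Prx1_Cre.

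Fbl encodes fibrillarin, the methyltransferase of the box C/D particle, and changed least in this role group. Its levels were 20.4, 19.8, 20.1 and 21.4 CPM in No_Cre, 16.9, 16.4, 16.8 and 19.8 in Tek_Cre and 23.6, 22.6, 22.98 and 24.1 in Prx1_Cre. The groups did not overlap, but the gaps were narrow. Tek_Cre nearly touched No_Cre, at 19.77 CPM in the highest Tek_Cre library and 19.78 CPM in the lowest No_Cre library. Fbl rose by 0.19 ± 0.07 log2 (adjusted p = 0.012) in Prx1_Cre, a call that ended with upper-quartile scaling (0.10, adjusted p = 0.188). Fbl was also the gene most exposed to copies: 83.3% of its transcript lies in stretches that other loci repeat at 95% identity or more over at least 200 bases, so its level is uncertain. Nop58, the other core protein, had group means of 111 ± 6.58, 87.2 ± 6.52 and 167 ± 19.6 CPM (SD, n = 4) in No_Cre, Tek_Cre and Prx1_Cre and changed by 0.59 ± 0.07 log2 in Prx1_Cre and -0.35 ± 0.07 log2 in Tek_Cre.

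The box H/ACA snoRNP held the gene that went against the rest. In Prx1_Cre against No_Cre 3 of its 4 genes rose and Nop10 fell, with a median of 0.37, where 36.7% of all genes tested rose and 39.0% fell. In Tek_Cre against No_Cre all 4 fell, with a median of -0.17, where 26.5% of all genes tested fell. Dkc1, the pseudouridine synthase dyskerin, measured 162, 174, 169 and 159 CPM in No_Cre, 144, 142, 133 and 136 in Tek_Cre and 312, 304, 313 and 263 in Prx1_Cre. The groups did not overlap, with Prx1_Cre highest and Tek_Cre lowest. Dkc1 rose by 0.84 ± 0.05 log2 (adjusted p = 1.65e-13) in Prx1_Cre and fell in Tek_Cre (log2 change -0.26 ± 0.05, adjusted p = 1.22e-04).

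Nop10 encodes the smallest protein of that particle, which binds dyskerin directly (ENSMUSG00000027133.3, chr2:112261926-112263269). Its levels were 186, 190.1, 189 and 184 CPM in No_Cre, 176, 185, 172 and 173 in Tek_Cre and 164, 171, 168 and 163 in Prx1_Cre. All 4 Prx1_Cre libraries lay below the No_Cre and Tek_Cre libraries, and Tek_Cre overlapped No_Cre. Nop10 fell in Prx1_Cre against No_Cre (log2 change -0.17 ± 0.04, adjusted p = 1.91e-04), a call that was lost in the test against a 1.2-fold change. Its further falls were small, -0.09 ± 0.04 log2 (adjusted p = 0.0441) in Tek_Cre against No_Cre and -0.08 ± 0.04 log2 (adjusted p = 0.0484) in Prx1_Cre against Tek_Cre, and both calls ended under other settings. The remaining partners Gar1 and Nhp2 rose by 0.32 ± 0.05 log2 and 0.42 ± 0.04 log2 in Prx1_Cre.

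Because a ratio of 2 genes in 1 library does not depend on how libraries are scaled, partners of a complex were also compared as log2 ratios of counts per kilobase of transcript, described by range with no test. Nop10 over Dkc1 ran 1.47 to 1.55 in No_Cre, 1.63 to 1.72 in Tek_Cre and 0.41 to 0.65 in Prx1_Cre. Those ranges were separate in all 3 groups, and Prx1_Cre was lowest. Gar1 over Dkc1 ran -0.66 to -0.37 in No_Cre and -1.07 to -0.92 in Prx1_Cre, and Nop56 over Fbl ran 2.87 to 2.95 and 3.48 to 3.56. For both pairs Tek_Cre overlapped No_Cre. Partners in these pairs thus changed unequally between No_Cre and Prx1_Cre, though the level of Fbl is uncertain because of its copies. Nhp2 over Dkc1 ran 1.38 to 1.61 in No_Cre and 0.94 to 1.36 in Prx1_Cre, with no overlap. Nop58 over Fbl ran 1.87 to 2.03 in No_Cre and 2.01 to 2.46 in Prx1_Cre, and these libraries overlapped. Polr1b over Polr1a was highest in No_Cre, at 1.64 to 1.71, against 1.42 to 1.60 in Tek_Cre and 1.27 to 1.39 in Prx1_Cre. In the PeBoW complex, in which Pes1, Bop1 and Wdr12 process the large subunit precursor, Pes1 over Bop1 ran -0.60 to -0.56 in No_Cre, -0.72 to -0.55 in Tek_Cre and -0.52 to -0.46 in Prx1_Cre, and its mean was 0.092 higher in Prx1_Cre than in No_Cre. Wdr12 over Bop1 ran -1.18 to -1.04, -1.33 to -0.96 and -1.08 to -0.68, with a mean 0.29 higher in Prx1_Cre and libraries that overlapped.

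**Figure D3:**
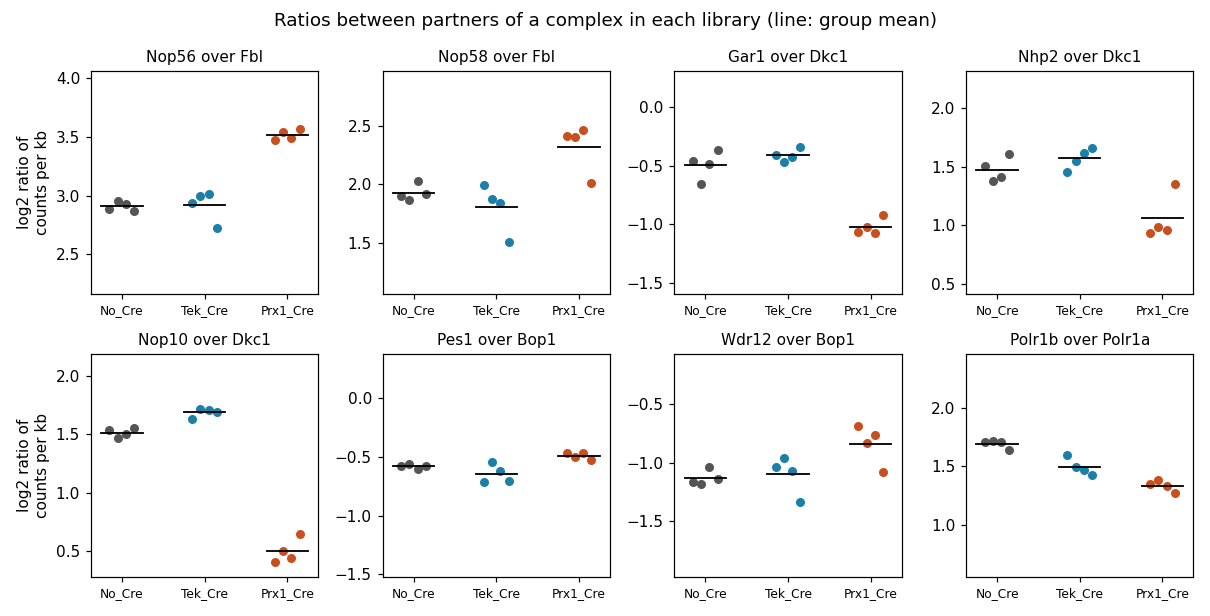
Log2 ratio of counts per kilobase between partners of a complex in each library, with a line at the group mean. Nop10 over Dkc1 has group means of 1.51 in No_Cre, 1.68 in Tek_Cre and 0.50 in Prx1_Cre, while those of Pes1 over Bop1 lie between -0.65 and -0.49.

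Every one of the 11 small subunit assembly genes rose in Prx1_Cre against No_Cre, with a median of 0.86. In Tek_Cre against No_Cre 6 fell, 1 rose and 4 were not called, with a median of -0.15. The shares of all genes tested were 36.7% higher in the first comparison, and 26.5% lower and 26.4% higher in the second. Wdr43, a component of the early U3 processome, was the most abundant, at 132, 133, 144 and 134 CPM in No_Cre, 147, 147, 141 and 132 in Tek_Cre and 256, 255, 247 and 229 in Prx1_Cre. Tek_Cre overlapped No_Cre and Prx1_Cre stood above both. Wdr43 rose by 0.86 ± 0.04 log2 (adjusted p = 2.14e-14) in Prx1_Cre.

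Rrp12 and Bysl, late factors that help the small subunit precursor leave the nucleus, made the largest changes of the 11 in Prx1_Cre against No_Cre. The change of Bysl differed from that of Heatr1 by less than its SE. Rrp12 measured 70.5, 72.1, 70.8 and 75.5 CPM in No_Cre, 51.1, 46.8, 58.1 and 54.4 in Tek_Cre and 142, 148, 144 and 166 in Prx1_Cre. Bysl measured 60.8, 57.6, 58.3 and 62.1 CPM in No_Cre, 46.8, 45.5, 52.7 and 49.4 in Tek_Cre and 115, 117, 113 and 139 in Prx1_Cre. For both genes the groups did not overlap, Tek_Cre was lowest and Prx1_Cre replicate 4 was the highest library. Rrp12 rose by 1.05 ± 0.06 log2 (adjusted p = 3.25e-14) and Bysl by 1.02 ± 0.06 log2 (adjusted p = 1.75e-13) in Prx1_Cre, and both fell in Tek_Cre (-0.45 ± 0.06 log2 and -0.29 ± 0.06 log2). Bysl overlaps Ccnd3 on the opposite strand and whether the counting used strand is not stated, so reads of the 2 genes may be mixed. Other late factors rose in Prx1_Cre by 0.94 ± 0.07 log2 for Pno1, 0.86 ± 0.05 log2 for Tsr1 and 0.60 ± 0.05 log2 for Ltv1.

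Heatr1 and Utp20, very long proteins of the early processome, fell most in Tek_Cre. Heatr1 measured 64.4, 68.1, 72.3 and 66.9 CPM in No_Cre, 50.7, 44.1, 50.3 and 41.8 in Tek_Cre and 142, 136, 133 and 134 in Prx1_Cre. Its groups did not overlap and Tek_Cre was lowest. It rose in Prx1_Cre by 1.01 ± 0.05 log2 (adjusted p = 3.62e-14) and fell in Tek_Cre (log2 change -0.54 ± 0.06, adjusted p = 3.84e-08), and its change of 1.54 ± 0.06 log2 in Prx1_Cre against Tek_Cre was the largest of the 36. Utp20 had means of 26.6 ± 1.51, 18.5 ± 2.89 and 35.7 ± 1.05 CPM (SD, n = 4) in No_Cre, Tek_Cre and Prx1_Cre and changed by 0.42 ± 0.08 log2 in Prx1_Cre and -0.54 ± 0.08 log2 in Tek_Cre.

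Smaller changes were seen for the helicase gene Ddx10 and for Utp15, a factor of the early processome. Ddx10 measured 47.7, 45.1, 51.02 and 44.3 CPM in No_Cre, 45.03, 40.3, 43.4 and 40.6 in Tek_Cre and 60.9, 60.9, 58.8 and 49.2 in Prx1_Cre. Prx1_Cre replicate 4 lay inside the No_Cre range, so Ddx10 was the only gene of the 36 whose No_Cre and Prx1_Cre libraries overlapped. Utp15 measured 55.8, 53.7, 50.6 and 53.9 CPM in No_Cre, 56.1, 56.9, 55.3 and 53.98 in Tek_Cre and 72.01, 72.4, 68.9 and 66.2 in Prx1_Cre. Its Prx1_Cre libraries stood above the rest. Ddx10 rose by 0.29 ± 0.06 log2 (adjusted p = 2.86e-04) and Utp15 by 0.38 ± 0.05 log2 (adjusted p = 8.63e-08) in Prx1_Cre, and neither was called in Tek_Cre, although Ddx10 was called lower there in 8 of 22 alternatives (adjusted p from 0.0105 to 0.0499).

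Nop14, another processome component, went against most called genes in Tek_Cre. Its levels were 51.6, 50.7, 53.3 and 54.4 CPM in No_Cre, 63.2, 63.7, 62.8 and 57.8 in Tek_Cre and 93.5, 95.4, 93.2 and 89.6 in Prx1_Cre. The groups did not overlap and No_Cre was lowest. Nop14 rose by 0.82 ± 0.05 log2 (adjusted p = 6.46e-14) in Prx1_Cre and by 0.24 ± 0.05 log2 (adjusted p = 1.79e-04) in Tek_Cre.

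The large subunit assembly genes rose as a whole in Prx1_Cre against No_Cre, 9 of 9, with a median of 0.70. In Tek_Cre against No_Cre 4 fell, 1 rose and 4 were not called, with a median of -0.11. The shares of all genes tested were 36.7% higher in the first comparison, and 26.5% lower and 26.4% higher in the second. Noc2l, whose yeast counterpart Noc2 accompanies the large subunit precursor, was the most abundant, at 354, 349, 341 and 354 CPM in No_Cre, 323, 313, 330.1 and 352 in Tek_Cre and 449, 435, 444 and 517 in Prx1_Cre. Prx1_Cre stood above the others. Noc2l rose by 0.40 ± 0.05 log2 (adjusted p = 5.44e-08) in Prx1_Cre and was not called in Tek_Cre (log2 change -0.08 ± 0.05, adjusted p = 0.144). It was called lower in Tek_Cre in 5 of 22 alternatives (adjusted p from 0.0194 to 0.0362).

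Rrs1, which brings the 5S particle to the precursor, measured 52.4, 48.00, 52.6 and 58.5 CPM in No_Cre, 45.8, 48.3, 50.8 and 50.3 in Tek_Cre and 86.6, 89.3, 89.5 and 102 in Prx1_Cre. Nop2, an rRNA cytosine methyltransferase, measured 175, 170.0, 169.9 and 176 CPM in No_Cre, 164, 166, 171 and 179.5 in Tek_Cre and 269.7, 278, 282 and 317 in Prx1_Cre. For both genes Tek_Cre overlapped No_Cre and Prx1_Cre stood above. Rrs1 rose by 0.80 ± 0.06 log2 (adjusted p = 1.80e-11) and Nop2 by 0.73 ± 0.05 log2 (adjusted p = 6.38e-13) in Prx1_Cre. Nop16, an assembly factor named from yeast, changed least of the 9 and measured 122, 124, 121 and 119.7 CPM in No_Cre, 102, 106, 111 and 112 in Tek_Cre and 148, 143, 150.1 and 155 in Prx1_Cre. Its groups did not overlap, and it rose by 0.29 ± 0.04 log2 (adjusted p = 4.93e-07) in Prx1_Cre and fell in Tek_Cre (log2 change -0.18 ± 0.04, adjusted p = 9.00e-04).

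Rrp1b was the third gene that rose in Tek_Cre. It encodes a nucleolar protein of the large subunit pathway and measured 92.8, 104, 102 and 99.1 CPM in No_Cre, 111, 111, 116 and 117 in Tek_Cre and 161, 159, 154 and 172 in Prx1_Cre. The groups did not overlap and No_Cre was lowest. Rrp1b rose by 0.70 ± 0.04 log2 (adjusted p = 6.71e-13) in Prx1_Cre and by 0.20 ± 0.04 log2 (adjusted p = 7.29e-04) in Tek_Cre. The PeBoW genes rose in Prx1_Cre by 0.53 ± 0.05 log2 for Pes1, 0.44 ± 0.05 log2 for Bop1 and 0.73 ± 0.05 log2 for Wdr12. Ebna1bp2, the counterpart of yeast Ebp2, rose by 0.72 ± 0.04 log2.

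Levels differed widely among the genes when expressed as CPM per kilobase of transcript. In No_Cre the lowest were 3.01 for Utp20 and 7.44 for Polr1a, and the highest were 128 for Nop56, 165 for Nhp2 and 169 for Nop10. The last pair differed by less than the spread of Nhp2, whose SD was 6.18. In Prx1_Cre the highest were Nop56, at 224 ± 10.1, and Nhp2, at 221 ± 12.8 (SD, n = 4), which differed by less than either SD. Places in this order depend on the annotated transcript. That of Ncl is 8202 bases long for a coding part of 2121 bases, and that of Nop10 is 1109 for 192. Per kilobase of coding part, Nop10 stood at 976 CPM and Nhp2 at 374 CPM in No_Cre.

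The genes also share features of their loci. Of the 36 genes, 7 hold snoRNA genes in their bodies (Ncl, Gnl3, Nop56, Nop58, Dkc1, Wdr43 and Tsr1), 21 snoRNA genes in all. That is 19.4%, against 1.63% of all genes tested. Near-identical copies elsewhere in the transcriptome were found for 6 genes and could take or lend reads: Npm1 (53.8% of the transcript), Fbl (83.3%), Pes1 (60.3%), Wdr12 (44.6%), Nop56 (39.2%) and Ddx21 (8.43%). Over the 12 libraries the copies of Ddx21 held 2 counts against 37200 at the gene, and those of Fbl held 511 against 5852. Genes on the opposite strand overlap several of the 36, among them Srr at Tsr1, Idh3b at Nop56 and Mpp1 at Dkc1, and their reads could be mixed in the same way as those of Ccnd3 at Bysl.

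Most further genes of ribosome assembly rose in Prx1_Cre too. Of 132 further pathway genes tested, 103 rose, 10 fell and 19 were not called in Prx1_Cre against No_Cre, with a median of 0.36, where 36.7% of all genes tested rose and 39.0% fell. In Tek_Cre against No_Cre 19 rose, 42 fell and 71 were not called, with a median of -0.05, where 26.4% of all genes tested rose and 26.5% fell, so the share that fell was near that of all genes. In Prx1_Cre against Tek_Cre 106 rose and 14 fell, with a median of 0.44, where 37.8% and 39.8% of all genes tested did so.

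Among 13 further genes of the polymerase I machinery, 9 rose and 1 fell in Prx1_Cre against No_Cre, beside the same 36.7% and 39.0% of all genes tested. Ubtf, the factor that opens ribosomal DNA for transcription, changed by 0.56 ± 0.04 log2 (adjusted p = 2.44e-12), Rrn3, which brings the polymerase to the promoter, by 0.48 ± 0.05 log2 (adjusted p = 1.22e-08), and the small polymerase subunit Polr1h by -0.48 ± 0.05 log2 (adjusted p = 7.18e-09). Of 41 further small subunit factors 36 rose and 2 fell. Mphosph10 of the U3 particle changed by 1.21 ± 0.09 log2 (adjusted p = 2.84e-10), the RNA acetyltransferase Nat10 by 1.14 ± 0.05 log2 (adjusted p = 2.65e-16), and the U3 component Imp3 by -0.29 ± 0.05 log2 (adjusted p = 1.01e-05). Of 44 further large subunit factors 37 rose and 7 were not called. The ATPase Nvl changed by 1.22 ± 0.06 log2 (adjusted p = 7.22e-15) and the export adaptor Nmd3 by 0.93 ± 0.07 log2 (adjusted p = 4.65e-11). Mdn1, a giant ATPase that strips factors from the precursor, was not called in Prx1_Cre (log2 change -0.13 ± 0.07, adjusted p = 0.0848), and in Tek_Cre against No_Cre it fell (log2 change -1.17 ± 0.08, adjusted p = 1.12e-11).

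SnoRNP assembly factors were mixed in Prx1_Cre against No_Cre, with 6 of 12 higher and 2 lower. In this list and in the exosome and host gene lists, each of 9 to 13 genes, the counts stand beside 36.7% of all genes tested higher and 39.0% lower. Ruvbl2 changed by 0.79 ± 0.05 log2 (adjusted p = 9.73e-13), Nufip1 by 0.61 ± 0.07 log2 (adjusted p = 2.33e-08) and Nopchap1 by -0.20 ± 0.07 log2 (adjusted p = 0.00962). The RNA exosome, which trims rRNA precursors, had 9 of 13 higher and 3 lower. Its nuclease Dis3 changed by 0.92 ± 0.07 log2 (adjusted p = 2.39e-11), the helicase Mtrex by 0.74 ± 0.05 log2 (adjusted p = 3.39e-12) and the ring subunit Exosc5 by -0.36 ± 0.05 log2 (adjusted p = 6.47e-07). Noncoding snoRNA host genes had 6 of 9 higher and 2 lower, with Snhg5 at 0.81 ± 0.07 log2 (adjusted p = 2.92e-10), Snhg1 at 0.61 ± 0.10 log2 (adjusted p = 4.94e-06) and Snhg3, a gene near the limit of detection, at -0.24 ± 0.38 log2 (adjusted p = 0.585).

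**Figure D4:**
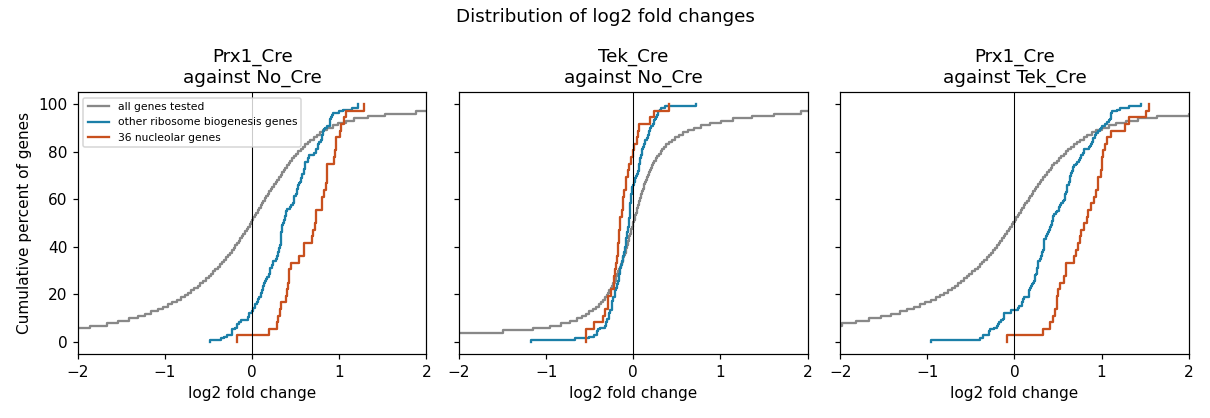
Cumulative percent of genes by log2 fold change for the 36 genes, 132 further ribosome biogenesis genes and all 14756 genes tested, in the 3 comparisons. The curve of the 36 genes lies right of the others over most of its range in both comparisons with Prx1_Cre, with medians of 0.73 and 0.82, and left of 0 for most genes in Tek_Cre against No_Cre, with a median of -0.15.

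The RNA of Myc did not rise with these genes. Myc averaged 482 ± 21.3, 434 ± 18.6 and 448 ± 21.6 CPM (SD, n = 4) in No_Cre, Tek_Cre and Prx1_Cre, with a change of -0.11 ± 0.04 log2 (adjusted p = 0.0261) in Prx1_Cre against No_Cre, a call lost in 5 of 22 alternatives, over which the change ran from -0.20 to -0.088. Mycn averaged 191 ± 13.1, 263 ± 7.75 and 89.4 ± 2.92 CPM and fell in Prx1_Cre (log2 change -1.09 ± 0.05, adjusted p = 3.71e-16). Max, the partner that MYC needs to bind DNA, averaged 22.3 ± 1.34, 27.1 ± 1.07 and 62.8 ± 2.17 CPM and rose in Prx1_Cre (log2 change 1.49 ± 0.06, adjusted p = 4.16e-17). Of 10 MYC network genes 4 rose and 6 fell in that comparison, where 36.7% and 39.0% of all genes tested did so. The share that rose was near that of all genes, and the share that fell was higher, in a list of only 10 genes. These are RNA levels and protein was not measured.

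Genes of mitosis and markers of cell types moved with the groups as well, and their part in the result was not tested. Their counts stand beside 36.7% of all genes tested higher and 39.0% lower in Prx1_Cre against No_Cre. In Tek_Cre against No_Cre these shares were 26.4% and 26.5%. The 20 G2/M genes all rose in Prx1_Cre against No_Cre, with a median of 0.82, and 18 of them fell in Tek_Cre against No_Cre, with a median of -0.43. Their summed CPM was 2066 to 2096 in No_Cre, 1539 to 1617 in Tek_Cre and 3535 to 3592 in Prx1_Cre. All 12 LTHSC markers had counts in every group, and all 12 fell in Prx1_Cre. They summed to 2666 to 2708, 3133 to 3184 and 1397 to 1430 CPM in the same order of groups. Of the 12, 7 rose and 1 fell in Tek_Cre against No_Cre. The 12 erythroid markers all rose in Prx1_Cre, with summed CPM of 1696 to 1743, 1242 to 1293 and 6221 to 6296. Of these, 0 rose and 9 fell in Tek_Cre against No_Cre. Neutrophil markers summed to 28803 to 29122, 36311 to 36829 and 50149 to 52265 CPM, and 10 of the 12 rose and 1 fell in Prx1_Cre. In Tek_Cre against No_Cre 7 of them rose and 5 fell, so the higher sum there does not hold for each marker. Plasma cell markers summed to 18108 to 18620, 93349 to 99502 and 1049 to 1095 CPM. All 9 fell in Prx1_Cre and all 9 rose in Tek_Cre, and Irf4 and Tnfrsf17 had no count in Prx1_Cre. Among the markers tested, 8 of 8 for B cells and 6 of 6 for megakaryocytes fell in Prx1_Cre against No_Cre. So did 7 of 8 for eosinophils and mast cells and 4 of 5 for T and NK cells. Markers of monocytes and macrophages (4 rose, 3 fell), endothelium (2 rose, 3 fell) and stroma (2 rose, 1 fell) were mixed.

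The libraries varied little around these values. The coefficient of variation of the 36 genes had a median of 3.46% in No_Cre, 4.78% in Tek_Cre and 5.39% in Prx1_Cre. Its highest values were 8.17% for Rrs1, 15.6% for Utp20 and 11.98% for Npm1. Prx1_Cre replicate 4 was the highest library of its group for 20 of the 36 genes and the lowest for 14. Its share of mitochondrially encoded counts was 0.282%, against 0.404% to 0.456% in the rest of its group. Without it 35 genes rose and 1 fell in Prx1_Cre against No_Cre, with a median of 0.68.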

How the data were processed

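RNA-seq was made from sorted leukemic LTHSC in 12 libraries of 3 groups, with a SMARTer Ultra Low Input cDNA kit followed by Nextera XT, per the labels' protocols. The authors deposited raw counts per gene, 1 column per library, with 48795 versioned Ensembl identifiers, and 0 columns belonged to other series. Per the submitters' processing notes, the tools were HTSeq 0.9.1, STAR 2.5.3a, DESeq2 1.18.1 and Trim Galore 0.4.4, and the build GRCm38. The roles of these tools, the annotation release, the strand setting and the treatment of reads shared between loci are not given in the sources used here. No molecular identifiers are named, so amplified reads are not independent.

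From the counts, 48435 identifiers were matched to GENCODE M21 without version and 360 were not. Of 308 listed genes 1 was not matched and 5 were matched by an older symbol. The main test was the robust two-sided quasi-likelihood test of edgeR 4.0.16 (R 4.3.3) with TMM factors and filterByExpr. All 12 libraries entered 1 fit with group as the sole term, and Benjamini-Hochberg adjustment ran over all 14756 genes of a comparison. The test was tried on simulated counts first. Lengths are those of the principal transcript. Values named in full are those of the most abundant gene of each role group, its largest and smallest changes in Prx1_Cre against No_Cre (2 of each, or 1 in groups under 5 genes), and genes against the direction of most called ones, 23 genes in all. Genes of the further pathway lists were the 2 largest and the smallest change per list. The 36 genes and all lists were chosen with earlier results of these data known. Plots were drawn with matplotlib 3.10.9.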

Additional observations from a re-analysis of the deposited data

Results flagged for a closer look

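Within each group of 4 libraries, a gene was singled out where its highest or lowest library lay so far from the nearest other that the gap exceeded 0.829 of the whole range. Of 108 groups examined, 12 met this, where chance gives about 1 in 20, or 5.4. Prx1_Cre replicate 4 made 7 of the 12. It was the lowest library of its group for Ncl (1286 CPM), Gnl3 (134 CPM) and Gar1 (63.1 CPM), and the highest for Mybbp1a (632 CPM), Nop56 (448 CPM), Nhp2 (250.1 CPM) and Bysl (139 CPM). All 7 values still lay above the No_Cre and Tek_Cre libraries of the same gene.

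The rest were spread over other libraries. No_Cre replicate 3 was lowest for Mybbp1a (419.6 CPM) and highest for Wdr43 (144 CPM). Tek_Cre replicate 4 was highest for Fbl (19.8 CPM) and lowest for Nop14 (57.8 CPM), and Tek_Cre replicate 2 was lowest for Ebna1bp2 (135 CPM).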

How the results depend on the processing

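In each comparison 22 alternatives were run. With Prx1_Cre against No_Cre, 35 genes rose in every alternative except upper-quartile scaling, where 34 rose, and the test against a 1.2-fold change, where 31 rose and 0 fell, and 31 of the 36 calls held in all. The median moved to 0.69 with a stricter filter and to 0.63 with upper-quartile scaling, which also shifted the median of all genes to -0.11, and it ran from 0.68 to 0.73 when 1 library was left out. Calls lost were those of Fbl, Gar1, Nop10, Ddx10 and Nop16 under the 1.2-fold test and of Fbl under upper-quartile scaling (0.10, adjusted p = 0.188).

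With Tek_Cre against No_Cre, 4 of 24 calls held in all alternatives. The 1.2-fold test left 1 gene higher and 3 lower of the 36, and 2006 higher and 1771 lower of all genes tested. Leaving out 1 library gave 19 to 25 genes lower. Calls of a lower level were gained by Wdr12 in 11 alternatives, Ddx10 in 8, Noc2l in 5 and Rrs1 in 4. Values near 0 changed sign. Polr1a went to -0.016 without a filter, -0.0026 with only the 8 libraries compared, -0.010 with upper-quartile scaling and -0.00049 without immunoglobulin genes, and ran from -0.0085 to 0.015 with 1 library left out. Npm1 went to 7.31e-05 with the replicate block, 0.0055 with the stricter filter, and ran from -0.032 to 0.018 with 1 library left out. The cause was not tested.

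With Prx1_Cre against Tek_Cre, 35 genes rose throughout. The call of Nop10 was lost, leaving 0 lower, with DESeq2, RLE scaling, no filter, only the 8 libraries compared, the 1.2-fold test and without mitochondrially encoded genes, and 0 to 1 were lower when 1 library was left out. The median moved to 0.74 with upper-quartile scaling and ran from 0.79 to 0.83 with libraries left out.

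The labels do not say that replicate numbers mark a shared mouse or batch. Same-numbered libraries correlated weakly, at -0.03 to 0.20 over 12 pairs. Values above 0.1 were found only for Prx1_Cre replicate 4, with No_Cre replicate 4 (0.11) and with Tek_Cre replicate 4 (0.20). Yet 9 of 12 libraries correlated best with their own number, a hint of weak pairing from the data and not from the design. The libraries' best matches are not independent of each other, and no figure for chance was computed. With the replicate block 35 rose and 1 fell in both comparisons with Prx1_Cre, and 3 rose and 25 fell in Tek_Cre against No_Cre.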
